A study of Mus musculus with 23 samples.

Results

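CXC chemokines are small secreted proteins that attract leukocytes, and the 8 genes of this family described here are Cxcl1, Cxcl2, Cxcl9, Cxcl10, Cxcl13, Cxcl14, Cxcl16 and Pf4. They were taken by gene symbol from a table of 33280 genes, with earlier results of these data known. The 8 genes were followed in 23 RNA sequencing libraries of macrophages sorted from mouse brain 1 day after stroke. In each population it was asked how much of each chemokine transcript was present and whether the level depended on the macrophage population, on BLZ945, or on the origin of the cells.

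All animals carried Ccr2creERT2/+ R26tdT/tdT, in which tamoxifen, given to CTL and BLZ945 animals alike at 2 mg per day, turns on the red protein tdTomato (tdT) in cells with an active Ccr2 gene and in their progeny. BLZ945, which blocks the CSF-1 receptor and thereby depletes brain macrophages, was given by gavage at 200 mg/kg on 7 days, and CTL animals received vehicle. After 8 weeks of repopulation, a clot was induced with thrombin in the middle cerebral artery, so every library came from a stroked animal and none from an animal without stroke. By the methods of the study, brains were digested with enzymes before sorting, and the part of this step in the levels was not tested. Microglia (MG) were sorted as CD206- cells. Subdural CNS-associated macrophages (sdCAMs), which sit in the leptomeninges and around vessels, were sorted as CD206+ cells and split by the reporter. There were 5 libraries each of MG CTL, MG BLZ945, tdT- CTL sdCAMs and tdT- BLZ945 sdCAMs, and 3 of tdT+ BLZ945 sdCAMs. The sort gate left out Ly6C+, Ly6G+ and CD11c+ cells, the first 2 being surface markers of inflammatory monocytes and of neutrophils. A CTL library came from 1 animal and a BLZ945 library from 2 pooled animals, apart from those named F2, which came from 1. Pooling and treatment therefore went together, apart from the F2 libraries. The tdT- gate holds every cell in which the reporter was not switched on, whatever its origin.

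The family is named after the spacing of its conserved cysteines. Members with a glutamate-leucine-arginine motif, such as Cxcl1 and Cxcl2, act on Cxcr2 and draw neutrophils, and their transcription is rapidly induced by NF-kB. Cxcl9 and Cxcl10 are interferon-inducible ligands of Cxcr3 on T cells and natural killer cells. Cxcl13 attracts B cells through Cxcr5, Cxcl16 is made as a transmembrane protein that binds Cxcr6, and Pf4, or Cxcl4, is best known as a platelet granule protein that macrophages of the brain borders also express.

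Total counts per library lay between 9433960 and 13276081, so that 3 counts, used as the detection limit, equalled 0.226 to 0.318 CPM, the depth-scaled unit of level used here. Levels are given below as CPM on library sizes scaled by the trimmed mean of M values (TMM), and ± marks the SD over the libraries of a group (n = 5, or n = 3 for tdT+ sdCAMs). Where values of a group are listed, they stand in the order F1, F2, F3, M1, M2, or F2, F3, M2 for tdT+ sdCAMs. Within a treatment, libraries of the same name came from the same animal or pool. By the library names, the BLZ945 libraries F2 and M1 may share an animal. Each population showed the markers of its label. Summed over P2ry12, Tmem119, Sall1, Siglech and Sparc, microglial transcripts reached 9008 to 15143 CPM in MG and 537 to 1164 CPM in sdCAMs. The sum over Mrc1, Cd163, Lyve1, Folr2 and Ms4a7 was 7.21 to 41.6 CPM in MG and 5853 to 9947 CPM in sdCAMs. Markers of astrocytes summed to 144 to 298 CPM in MG and 34.8 to 255 CPM in sdCAMs, those of oligodendrocytes to 24.1 to 79.0 and 56.2 to 272.7 CPM, those of neurons to 4.87 to 12.9 and 44.8 to 117 CPM, those of endothelial cells to 10.3 to 29.6 and 4.08 to 38.7 CPM, and those of lymphocytes to at most 2.14 and 7.82 CPM.

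Of the 8 genes, 7 had an entry in the RefSeq promoter table of the mouse assembly GRCm38.p6. Cxcl16 was not matched. The 250 bases before the start of the genes whose levels separated MG from sdCAMs and held one of the searched motifs, Cxcl1, Cxcl2 and Cxcl10, are shown because they lie on the same chromosome, carry the same type of motif, and belong to genes with opposite population patterns. Cxcl1 lies at chr5:90890995-90891244 on the plus strand, Cxcl2 at chr5:90903649-90903898 on the plus strand, and Cxcl10 at chr5:92348890-92349139 on the minus strand. Capitals mark matches on either strand to the kB consensus, to the core of the interferon-stimulated response element (ISRE; GAAA, any 2 bases, GAAA) or to the AP-1 site (TGANTCA).
Cxcl1: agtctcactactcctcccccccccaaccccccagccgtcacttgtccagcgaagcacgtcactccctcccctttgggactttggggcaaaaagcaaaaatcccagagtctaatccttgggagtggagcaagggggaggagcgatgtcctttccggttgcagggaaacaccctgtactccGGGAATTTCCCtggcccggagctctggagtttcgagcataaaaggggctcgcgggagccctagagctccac
Cxcl2: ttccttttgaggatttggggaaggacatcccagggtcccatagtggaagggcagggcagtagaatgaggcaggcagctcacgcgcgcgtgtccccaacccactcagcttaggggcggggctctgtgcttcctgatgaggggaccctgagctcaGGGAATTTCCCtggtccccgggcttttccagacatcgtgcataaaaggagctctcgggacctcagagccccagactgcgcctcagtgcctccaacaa
Cxcl10: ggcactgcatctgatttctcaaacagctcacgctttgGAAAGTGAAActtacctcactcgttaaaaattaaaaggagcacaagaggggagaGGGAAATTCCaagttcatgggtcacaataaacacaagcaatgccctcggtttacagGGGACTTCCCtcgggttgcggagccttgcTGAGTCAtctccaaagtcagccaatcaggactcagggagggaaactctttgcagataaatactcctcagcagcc
The capitals in Cxcl1 and Cxcl2 are one and the same run, GGGAATTTCCC, which begins 71 bases before the start of Cxcl1 and 97 bases before that of Cxcl2 and matches the kB consensus in overlapping positions on both strands. In Cxcl10, from left to right, the capitals are an ISRE core at 213, kB matches at 159 and 103, and an AP-1 site at 74 bases before the start. A kB match was present in 3 of the 7 promoters and in 3.75% of 27025 promoters of the same length. An ISRE core was present in 2 of the 7, Cxcl10 and Cxcl14, and in 3.04% of all, and an AP-1 site in 1 of the 7, Cxcl10, and in 6.87% of all. Such matches are letters in a window and do not show that a factor was bound.

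In the annotation, Cxcl1 and Cxcl2 are direct neighbours, Pf4 lies between Ppbp and Cxcl3, and Cxcl9 and Cxcl10 lie on either side of Art3. How reads that match several genes were counted was not stated. Of the stretches of 50 bases in Cxcl2 transcripts, 5.84% also occur in Cxcl3, whereas Cxcl1, Cxcl10, Cxcl13, Cxcl14, Cxcl16 and Pf4 share none with another gene, and Cxcl9 shares 0.472% with repeats in other genes. Exons of Cxcl10 overlap those of Art3 on the other strand over 5.91% of their length, and those of Cxcl16 overlap Zmynd15 over 18.3%. Whether counting used strand was not stated. Art3 itself stood between 0 and 9.09 CPM and Zmynd15 between 0 and 20.4 CPM.

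The called differences of these chemokines lay between the populations. Cxcl1, Cxcl2 and Pf4 were higher in all 3 sdCAM groups than in MG, Cxcl10 was higher in MG, and Cxcl16 lay between 121 and 239.6 CPM in every library. In tdT- CTL sdCAMs against MG CTL, 3 of the 8 genes were called higher and 1 lower, that is at an adjusted p under 0.05 in edgeR's quasi-likelihood test with Benjamini-Hochberg adjustment over all genes tested. The share of all 12697 genes called in this comparison was 25.6%, with 15.3% called higher and 10.3% lower. The CPM ranges of 4 of the 8 genes, those called, did not overlap, against 26.8% of all genes. In tdT- BLZ945 sdCAMs against MG BLZ945, 4 were called higher and 1 lower, beside 32.4% of all genes called, 18.3% higher and 14.1% lower. The ranges of 4 of the 8 genes, those called apart from Cxcl9, did not overlap, against 22% of all genes. In tdT+ BLZ945 sdCAMs against MG BLZ945, 3 were called higher and 1 lower, beside 18.9% of 12868 genes, 11.8% higher and 7.05% lower. Here the ranges of 5 of the 8 genes, those called and Cxcl9, did not overlap, against 34.8% of all genes. The median log2 fold change of the 8 genes was 3.18 in CTL, 2.09 for tdT- and 1.57 for tdT+ sdCAMs of BLZ945 animals, and that of all genes was -0.01, -0.02 and -0.01. Both BLZ945 comparisons share the MG BLZ945 libraries. P-values throughout measure the spread between libraries, and in bulk libraries fewer cells of a type and less RNA per cell cannot be told apart.

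**Figure D1:**
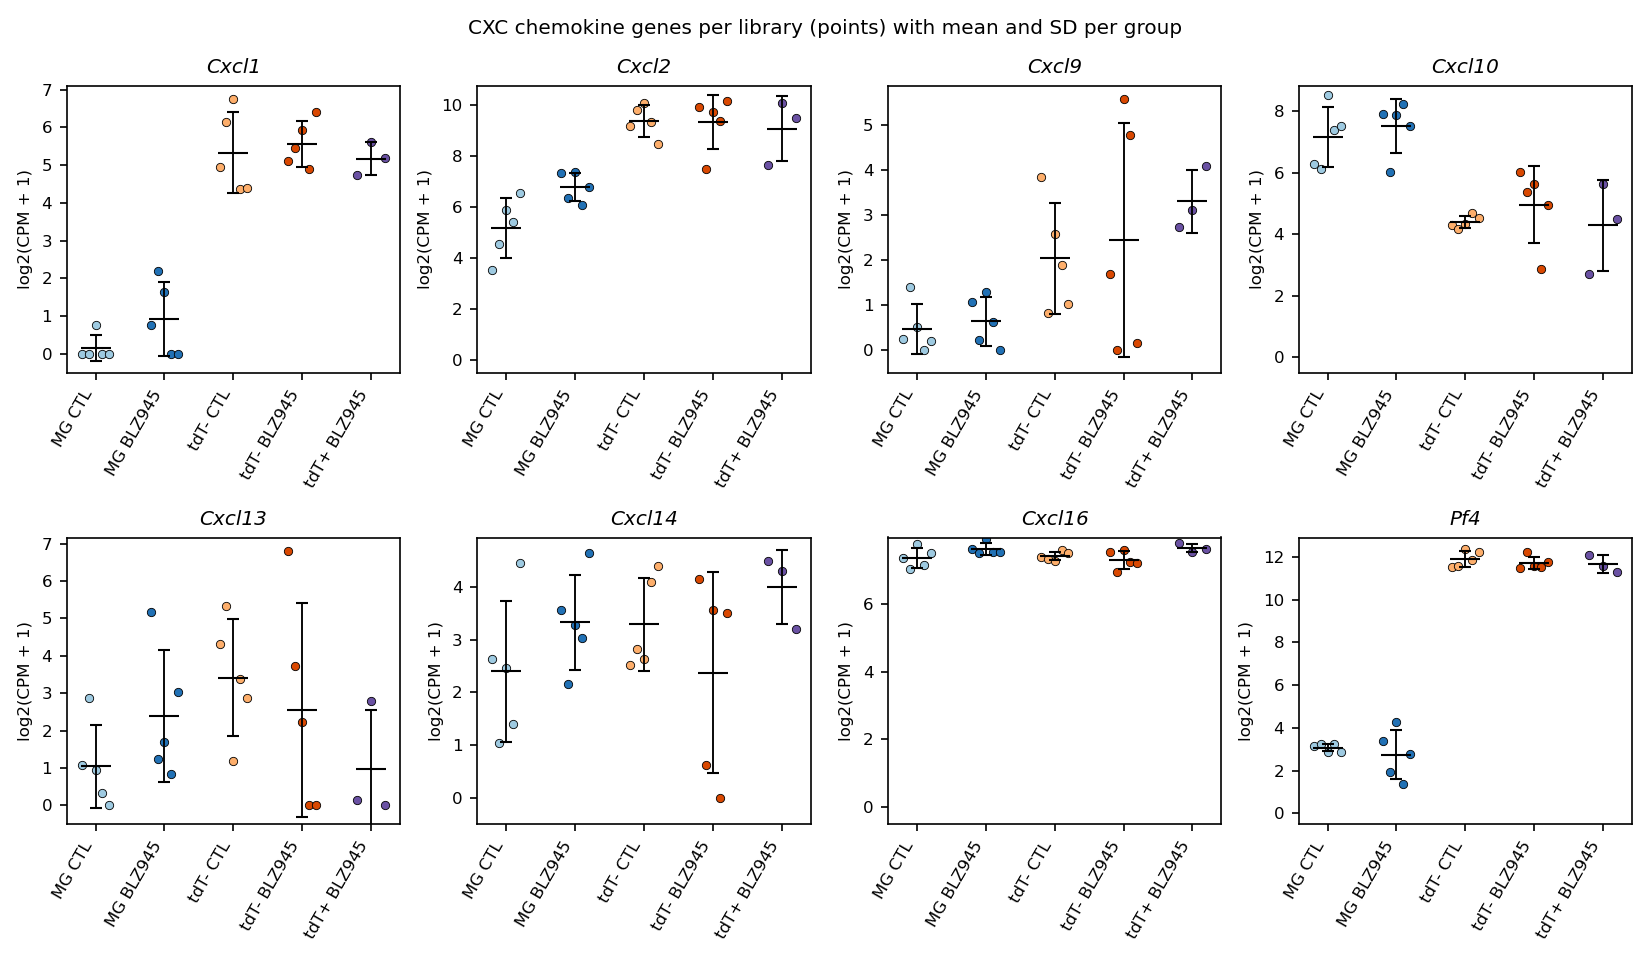
Level of each of the 8 CXC chemokines, as log2(CPM + 1), in each of the 23 libraries (points), with the group mean and SD (bars), for MG CTL, MG BLZ945, tdT- CTL, tdT- BLZ945 and tdT+ BLZ945. Cxcl1, Cxcl2 and Pf4 are higher in every sdCAM library than in any MG library, Cxcl10 is lower in every one, and Cxcl16 lies between 121 and 239.6 CPM in all libraries.

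Cxcl1, the neutrophil attractant also called KC, was at or close to 0 in MG and clearly present in sdCAMs. It had 0 counts in 4 of 5 MG CTL libraries and 8 counts, or 0.684 CPM, in F3. In MG BLZ945 it stood at 0.703, 3.60, 2.13, 0 and 0 CPM. These few reads set the base of every comparison with MG.
In tdT- CTL sdCAMs Cxcl1 was measured at 30.0, 70.0, 107, 19.6 and 20.1 CPM, in tdT- BLZ945 at 33.5, 42.7, 60.3, 28.9 and 84.1 CPM, and in tdT+ BLZ945 at 25.5, 47.7 and 35.5 CPM. The 3 sdCAM groups overlapped each other, and their lowest library was above every MG library. From high to low, the group means were 49.9 ± 22.6 CPM for tdT- BLZ945, 49.3 ± 38.2 for tdT- CTL, 36.2 ± 11.1 for tdT+ BLZ945, 1.29 ± 1.56 for MG BLZ945 and 0.137 ± 0.306 for MG CTL.
The log2 fold change of Cxcl1 between tdT- and MG was 8.39 in CTL (SE 1.11, edgeR adjusted p = 4.57e-06) and 5.26 in BLZ945 animals (SE 0.89, adjusted p = 9.24e-05), and it was 4.81 for tdT+ sdCAMs (SE 0.89, adjusted p = 0.00147). The size in CTL rests on library F3 of MG CTL: without it the fitted value was 12.11, since all the remaining MG CTL libraries held 0 counts. The tdT- and tdT+ values in BLZ945 animals were 6.12 and 5.66 without MG BLZ945 F2, and 4.94 and 4.45 without MG BLZ945 M2. The call and direction of Cxcl1 were the same in every alternative fit that tested it.

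Cxcl2, or MIP-2, was detected in MG as well, at a lower level. MG CTL libraries held 10.6, 22.5, 57.2, 41.0 and 92.9 CPM, and MG BLZ945 libraries 158, 81.1, 163, 67.3 and 109.6 CPM. tdT- CTL sdCAMs held 578, 895, 1069.6, 648 and 349 CPM, and tdT- BLZ945 sdCAMs 963, 176, 848, 664 and 1124 CPM. In tdT+ BLZ945 sdCAMs, the values were 199, 1074 and 723 CPM. The lowest sdCAM library, tdT- BLZ945 F2 at 176 CPM, was still above the highest MG library at 163 CPM.
The mean of Cxcl2 was 15.8 times as high in tdT- CTL sdCAMs (708 ± 281 CPM) as in MG CTL (44.9 ± 32.2), and 6.52 times as high in tdT- BLZ945 sdCAMs (755 ± 364) as in MG BLZ945 (116 ± 43.6). For tdT+ sdCAMs (665 ± 441) the ratio to MG BLZ945 was 5.75. The log2 fold changes were 3.99 (SE 0.52, edgeR adjusted p = 3.86e-06), 2.72 (SE 0.49, adjusted p = 0.000197) and 2.54 (SE 0.52, adjusted p = 0.00304). Within sdCAMs the group order, tdT- BLZ945 before tdT- CTL and tdT+ BLZ945, was smaller than the spread, with all 3 ranges overlapping.

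The low Cxcl2 libraries among the sdCAMs were those with few immediate early transcripts, which are induced within minutes of stimulation. Summed over Fos, Fosb, Jun, Junb, Egr1, Ier2, Ier3, Atf3, Dusp1 and Zfp36, these transcripts came to 9309 CPM in tdT+ F2, 12913 CPM in tdT- BLZ945 F2 and 13509 CPM in tdT- CTL M2, the 3 lowest of the 13 sdCAM libraries. The same libraries held the 3 lowest values of Cxcl2, at 199, 176 and 349 CPM. In the other sdCAM libraries the sum was between 23068 and 35806 CPM and Cxcl2 between 578 and 1124 CPM. The immediate early sum ranged from 15146 to 25183 CPM in MG, so the low sdCAM libraries lay below every MG library in the sum and above every one in Cxcl2. The same 3 libraries also had the lowest sums over 12 genes of the NF-kB response, at 2089, 3195 and 2651 CPM in the order above, against 4002 to 7367 CPM in the other sdCAM libraries and 4392 to 10988 CPM in MG. In MG, ranked from the lowest, MG CTL M2 had rank 3 in the immediate early sum and 7 in Cxcl2, and MG BLZ945 M1 ranks 9 and 5. MG CTL F2 had ranks 1 and 2, and MG BLZ945 M2 ranks 10 and 8. Cxcl1 in the same 3 sdCAM libraries was 25.5, 42.7 and 20.1 CPM, within the 19.6 to 107 CPM of the others. The part of either set of transcripts in the Cxcl2 level was not tested.

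**Figure D2:**
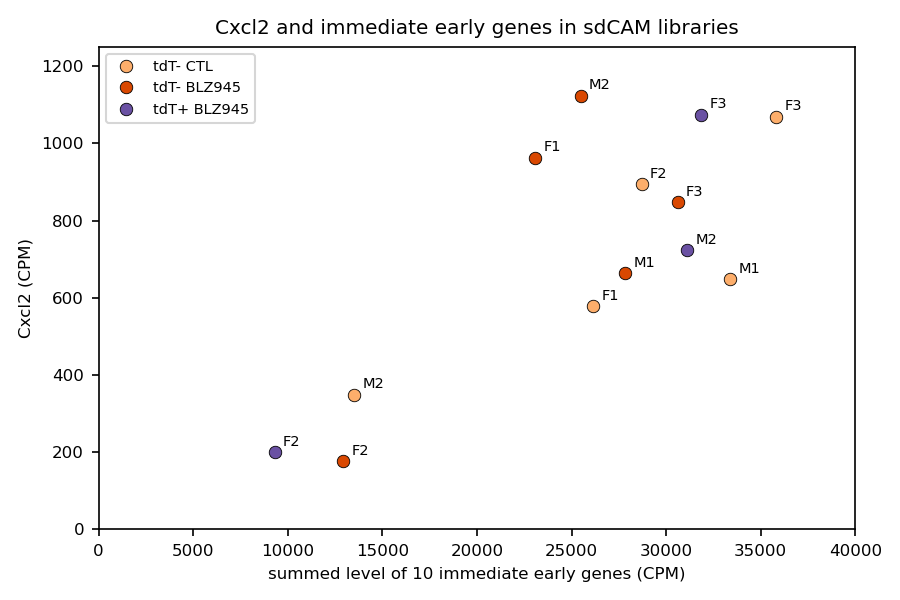
Cxcl2 (CPM, vertical axis) against the summed level of 10 immediate early genes (CPM, horizontal axis) in the 13 sdCAM libraries, labelled by replicate. tdT- BLZ945 F2, tdT+ BLZ945 F2 and tdT- CTL M2 stand at the lower left, with the 3 lowest values on both axes.

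Neutrophils also express these ligands, so their markers were read beside Cxcl1 and Cxcl2. The 6 markers S100a8, S100a9, Ly6g, Retnlg, Mmp8 and Csf3r summed to 152 to 245 CPM in MG and 36.6 to 126 CPM in sdCAMs, and most of the sum was Csf3r (151 to 236 CPM in MG, 36.2 to 80.3 CPM in sdCAMs). Ly6g was at 0 in all libraries but one, with 1.38 CPM in tdT- CTL M2. Retnlg reached 74.2 CPM in tdT- BLZ945 F1 and 17.7 CPM in tdT+ M2, and was at or near 0 elsewhere. The part of neutrophils in the Cxcl1 and Cxcl2 levels was not tested.

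Cxcl10, the interferon-inducible chemokine also called IP-10, had the opposite pattern. MG CTL libraries held 77.1, 68.3, 366, 164 and 180.2 CPM, and MG BLZ945 libraries 236, 64.0, 233, 300.1 and 182 CPM. tdT- CTL sdCAMs held 18.4, 16.8, 19.1, 24.5 and 22.2 CPM, a narrow range. The tdT- BLZ945 values were wider, at 63.2, 40.4, 48.2, 6.22 and 29.8 CPM, and those of tdT+ sdCAMs were 5.55, 48.7 and 21.6 CPM. The highest sdCAM library, at 63.2 CPM, lay just under the lowest MG library, at 64.0 CPM, and both came from BLZ945 animals.
The mean was 8.48 times as high in MG CTL (171 ± 120 CPM) as in tdT- CTL sdCAMs (20.2 ± 3.11). In BLZ945 animals, the mean in MG (203 ± 88.3) was 5.40 times that of tdT- (37.6 ± 21.3) and 8.04 times that of tdT+ sdCAMs (25.3 ± 21.8). The log2 fold changes of sdCAMs against MG were -3.07 (SE 0.51, edgeR adjusted p = 7.36e-05), -2.42 (SE 0.49, adjusted p = 0.000631) and -2.99 (SE 0.74, adjusted p = 0.0104). The last, for tdT+ sdCAMs, was -3.90 without tdT+ F3 and -2.52 without tdT+ F2. Beside Cxcl10, the microglial marker sum in sdCAMs, 537 to 1164 CPM, was well above 0, and its part in the Cxcl10 level was not tested.

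Cxcl9, the other Cxcr3 ligand measured, was low and uneven. In MG CTL it ranged from 0 to 1.66 CPM and in MG BLZ945 from 0 to 1.45 CPM. tdT- CTL sdCAMs held 13.5, 0.772, 5.04, 2.71 and 1.05 CPM, tdT- BLZ945 sdCAMs 2.25, 0, 47.2, 26.6 and 0.111 CPM, and tdT+ sdCAMs 5.65, 7.72 and 16.0 CPM. F3 and M1 alone carried the tdT- BLZ945 mean of 15.2 ± 21.1 CPM, and the range of that group, from 0 to 47.2 CPM, held those of all the other groups.
Cxcl9 was called higher in tdT- BLZ945 sdCAMs than in MG BLZ945, by 4.55 on the log2 scale (SE 1.45, edgeR adjusted p = 0.0201), with overlapping ranges. The call was lost without library F3 of tdT- BLZ945 (3.47, adjusted p = 0.0735) and with the replicate block (3.10, adjusted p = 0.135). Conversely, in tdT+ sdCAMs against MG BLZ945 it was not called (3.91, SE 1.54, adjusted p = 0.0922) although the ranges did not overlap, and the edgeR fit with the replicate block called it (6.77, adjusted p = 0.0468), as did that over all 23 libraries (3.90, adjusted p = 0.0490) and DESeq2 (3.95, adjusted p = 0.0314). In CTL the value was 3.23 (SE 1.39, adjusted p = 0.0979), and DESeq2 called it (3.26, adjusted p = 0.0360).

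Pf4, of which MG libraries held few transcripts, was abundant in every sdCAM library. In MG CTL it stood at 7.89, 8.40, 6.41, 8.37 and 6.36 CPM and in MG BLZ945 at 9.33, 2.77, 18.5, 1.60 and 5.92 CPM. tdT- CTL sdCAMs held 2951, 3075, 5219, 3740.3 and 4783 CPM, tdT- BLZ945 sdCAMs 2824, 4702, 3051, 2937 and 3507 CPM, and tdT+ sdCAMs 4368, 3056 and 2504 CPM. All sdCAM libraries lay within 2504 to 5219 CPM with overlapping groups, and no MG library exceeded 18.5 CPM.
The mean was 528 times as high in tdT- CTL sdCAMs as in MG CTL, and 446 and 434 times as high in tdT- and tdT+ sdCAMs as in MG BLZ945. The log2 fold changes of Pf4 were 9.05 (SE 0.51, edgeR adjusted p = 9.85e-12), 8.81 (SE 0.51, adjusted p = 1.22e-11) and 8.77 (SE 0.61, adjusted p = 7.07e-08). The values in BLZ945 animals were 9.46 and 9.42 without MG BLZ945 F3, and 8.55 and 8.46 without MG BLZ945 M1.
Because Pf4 is abundant in platelets, their markers Itga2b, Gp1ba, Gp9, Itgb3 and Tubb1 were summed. They gave 36.8 to 74.5 CPM in MG, nearly all from Gp9 and Itgb3, and 0 to 13.3 CPM in sdCAMs. Itga2b, Gp1ba and Tubb1 did not exceed 1.11 CPM in any library, and Itga2b and Gp1ba were at 0 in every sdCAM library of BLZ945 animals. The platelet chemokine gene Ppbp, which is not in this sum, went the other way, with at most 0.963 CPM in MG. It ranged from 6.57 to 117 CPM in tdT- CTL, 0 to 81.3 in tdT- BLZ945 and 0 to 40.2 in tdT+ sdCAMs. The part of platelets in the Pf4 level was not tested.

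**Figure D3:**
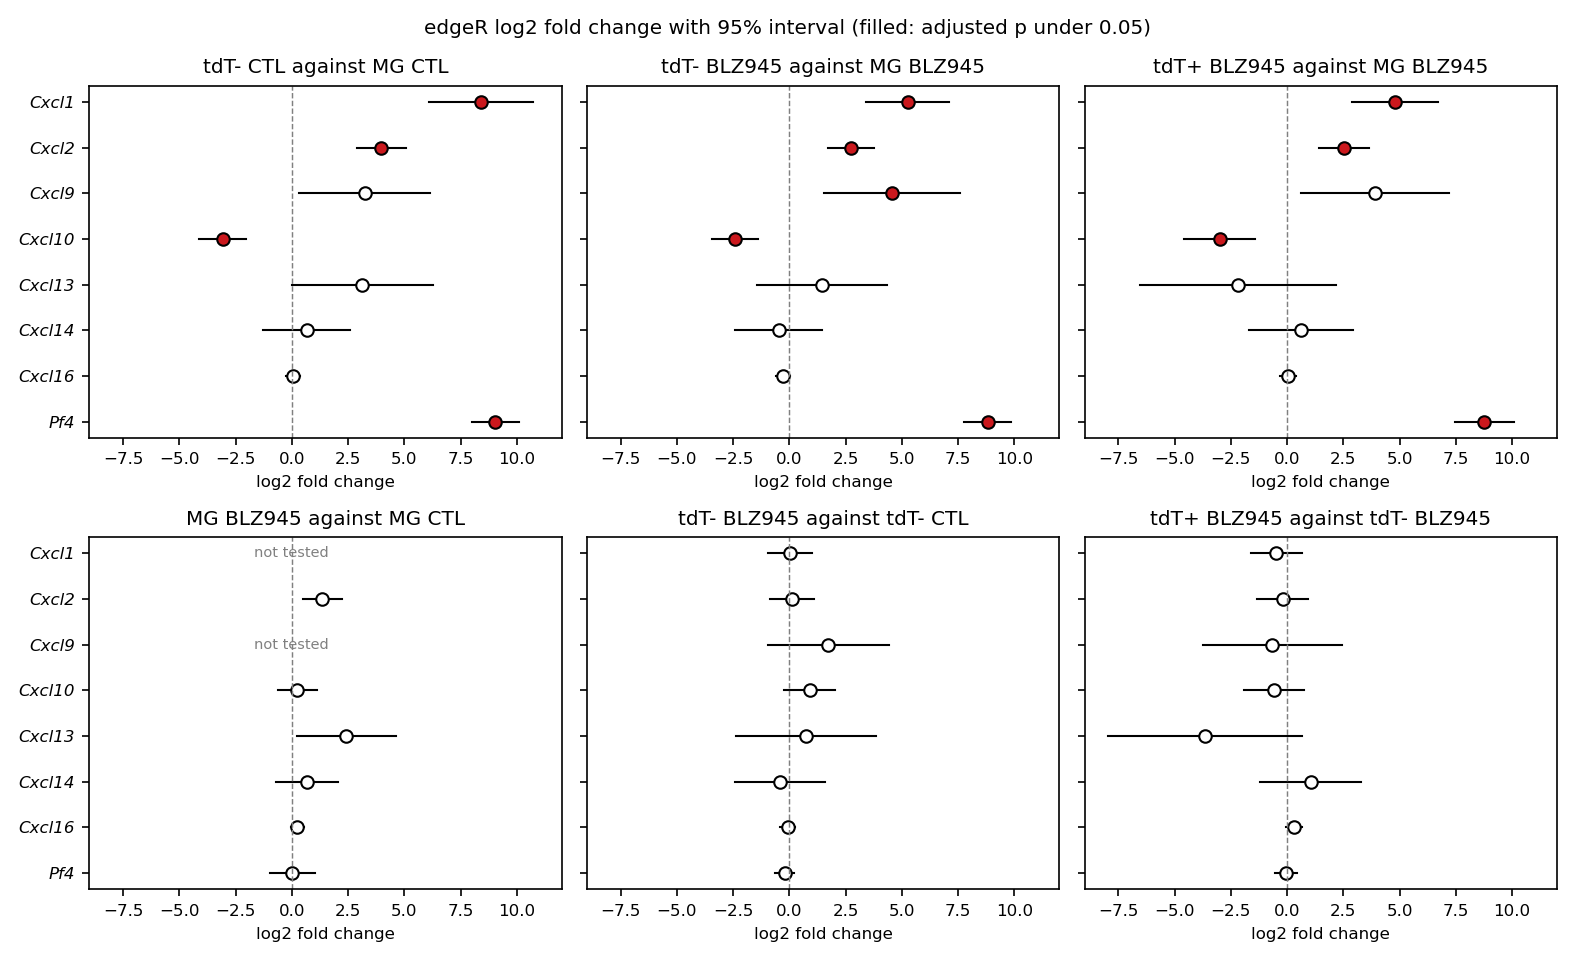
Log2 fold change of each chemokine in 6 comparisons (panels), with its 95% interval from the edgeR fit, and filled points for genes called at an adjusted p under 0.05. The 3 panels of sdCAMs against MG hold 13 called values, with Pf4 the farthest to the right in each fit shown and Cxcl10 to the left, and the panels of treatment and origin hold none.

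Cxcl16, which occurs as a membrane-bound and a shed form, varied least. MG CTL held 163, 129.8, 216, 141 and 182 CPM, MG BLZ945 197, 181, 239.6, 185 and 183 CPM, and tdT- CTL sdCAMs 167, 158, 153, 191 and 181 CPM. tdT- BLZ945 sdCAMs held 185, 121, 192, 148 and 148 CPM, and tdT+ sdCAMs 219.8, 186 and 196 CPM. Means ran from 200.4 ± 17.5 CPM in tdT+ BLZ945 through 197 ± 24.6 in MG BLZ945, 170.1 ± 15.6 in tdT- CTL and 166 ± 34.4 in MG CTL to 159 ± 29.5 in tdT- BLZ945, and every neighbour in this order overlapped the next.
Between tdT- CTL sdCAMs and MG CTL the log2 fold change was 0.04 with a 95% interval from -0.26 to 0.34 (edgeR adjusted p = 0.888), and between tdT+ sdCAMs and MG BLZ945 it was 0.04, from -0.33 to 0.40 (adjusted p = 0.916). In tdT- BLZ945 sdCAMs against MG BLZ945 it was -0.30, from -0.60 to 0.01 (adjusted p = 0.127). That value was lower in tdT- sdCAMs than in MG of the same animals in 5 of 5 pairs, with a median difference of -0.31 in log2(CPM + 1). Without TMM scaling it was called lower (-0.45, adjusted p = 0.0236), under which the median over all genes moved from -0.02 to -0.17.

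Cxcl13, the B cell attractant, was scattered within every group. It stood at 1.10, 6.30, 0.941, 0.256 and 0 CPM in MG CTL, at 34.7, 1.34, 2.22, 0.798 and 7.19 CPM in MG BLZ945, and at 18.9, 39.4, 1.28, 9.31 and 6.31 CPM in tdT- CTL sdCAMs. In tdT- BLZ945 sdCAMs it stood at 109.8, 12.2, 3.68, 0 and 0 CPM, and in tdT+ sdCAMs at 0.0957, 5.94 and 0 CPM. The F1 pool held the highest value of its group in both MG and tdT- sdCAMs of BLZ945 animals.
No comparison called Cxcl13. Its log2 fold change between tdT- sdCAMs and MG was 3.13 in CTL (95% interval 0.01 to 6.26, edgeR adjusted p = 0.141) and 1.46 in BLZ945 animals (SE 1.39, adjusted p = 0.454). The CTL value was 4.71 without MG CTL F2 and 2.39 without tdT- CTL F2. The BLZ945 value was 3.12 without MG BLZ945 F1 and -1.21 without tdT- BLZ945 F1. That library also had the highest levels of the monocyte markers Ccr2, at 121 CPM against 0 to 42.9 CPM in the other sdCAM libraries, Ly6c2, at 8.79 CPM against at most 1.09 CPM, and Chil3, at 6.11 CPM against at most 1.32 CPM. Plac8, a further monocyte marker, stood at 78.2 CPM in F1 and at 73.3 CPM in tdT- BLZ945 M1, where Cxcl13 was at 0. The dendritic cell markers Flt3, Zbtb46, Xcr1, Ccr7 and Itgax had their highest sum in F1 as well, 89.6 CPM, of which Ccr7 gave 45.6 CPM. In MG, Ccr2 was at 2.22 to 10.4 CPM and the dendritic cell sum at 14.2 to 24.2 CPM. The part of such cells in the Cxcl13 level of F1 was not tested.

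Cxcl14, a constitutively expressed chemokine of epithelia and connective tissue, was low in all groups. It ranged from 1.05 to 20.9 CPM in MG CTL, from 3.44 to 23.9 CPM in MG BLZ945, from 4.72 to 20.1 CPM in tdT- CTL, from 0 to 16.7 CPM in tdT- BLZ945 and from 8.22 to 21.6 CPM in tdT+ sdCAMs. All ranges overlapped. Its log2 fold changes between sdCAMs and MG were 0.66, -0.47 and 0.60 in the same order of comparisons, with edgeR adjusted p-values of 0.685, 0.736 and 0.762. Single libraries moved each of them: without MG CTL M2 the first was 1.75, without MG BLZ945 M2 the second was 0.04 and the third 1.08, and without tdT- CTL M2 the first was 0.27.

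Within animals, the population differences of Cxcl1, Cxcl2, Pf4 and Cxcl10 had one direction in every pair. Cxcl1, Cxcl2 and Pf4 were higher in tdT- sdCAMs than in MG in 5 of 5 CTL animals and 5 of 5 BLZ945 animals or pools, and higher in tdT+ sdCAMs than in MG in 3 of 3. Cxcl10 was lower in 5 of 5, 5 of 5 and 3 of 3, with median differences of -2.69, -2.25 and -3.02 in log2(CPM + 1). For Cxcl9 tdT- sdCAMs were higher in 4 of 5 CTL and 4 of 5 BLZ945 pairs and tdT+ sdCAMs in 3 of 3, and for Cxcl16 tdT- sdCAMs were higher in CTL in 3 of 5. Cxcl13, which was not called, was higher in tdT- sdCAMs than in MG in 5 of 5 CTL animals, by 0.23 or more with a median of 2.87 in log2(CPM + 1), and in 3 of 5 BLZ945 pairs and, for tdT+ sdCAMs, in 1 of 3.

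**Figure D4:**
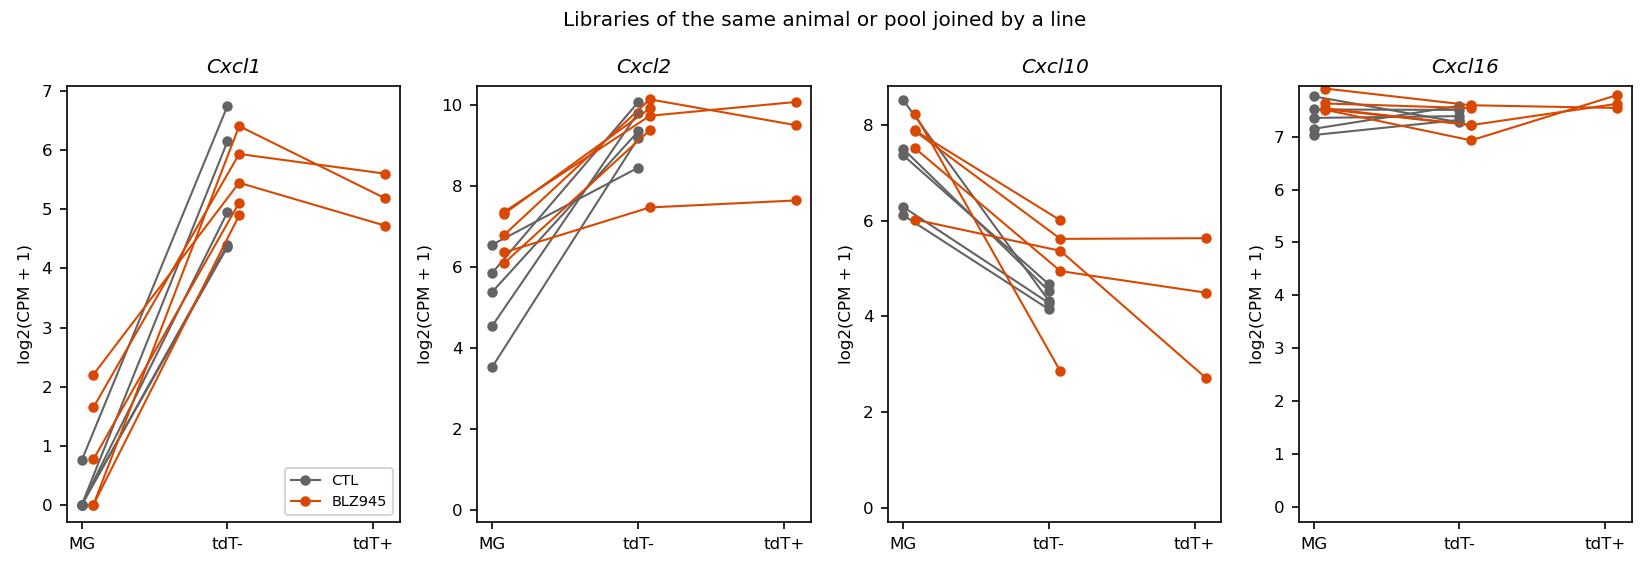
Cxcl1, Cxcl2, Cxcl10 and Cxcl16, as log2(CPM + 1), in MG, tdT- and tdT+ sdCAMs, with a line for each animal or pool (grey, CTL; orange, BLZ945). Lines climb from MG to sdCAMs for Cxcl1 and Cxcl2, descend for Cxcl10 and stay nearly level for Cxcl16.

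Divided by exon length, so that genes can be set beside each other, the make-up of the family differed between populations. In MG the median CPM per kilobase of exon was 80.4 for Cxcl10 (range 28.4 to 163), 60.3 for Cxcl16 (range 43.0 to 79.3), 35.9 for Cxcl2, 9.92 for Pf4, 3.40 for Cxcl14, 1.06 for Cxcl13, 0.101 for Cxcl9 and 0 for Cxcl1. In sdCAMs it was 4265 for Pf4, 349.8 for Cxcl2, 59.9 for Cxcl16, 18.9 for Cxcl1, 9.84 for Cxcl10, 5.67 for Cxcl14, 5.16 for Cxcl13 and 1.67 for Cxcl9. By these medians Cxcl10 came first in MG, with a range that overlapped that of Cxcl16, and behind 4 other genes in sdCAMs, where Pf4 led, and Cxcl16 had nearly the same level per length in both.

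BLZ945 went with no called change of these genes in either population. In MG, 0 of the 6 chemokines tested were called by edgeR, 2 had an unadjusted p under 0.05, and DESeq2 called 0, beside 0.408% of 11264 genes called by edgeR and 13.2% with an unadjusted p under 0.05. Cxcl1 and Cxcl9 were too low to be tested there. Cxcl2 had the smallest p, at 1.35 on the log2 scale (95% interval 0.48 to 2.22, edgeR adjusted p = 0.171) and a mean 2.58 times as high after BLZ945. The ranges overlapped through MG CTL M2 at 92.9 CPM, as they did for the 5 others, while 3.03% of all genes had none. Without that library Cxcl2 was called (1.81, adjusted p = 0.0289). Over all 17 alternative fits, by edgeR or DESeq2, Cxcl2 ran from 1.10 to 1.81 and its adjusted p from 0.0289 to 0.815. Cxcl13 had a value of 2.41 (SE 1.04, adjusted p = 0.336), which was 0.74 without MG BLZ945 F1. Those of Cxcl10, Cxcl14, Cxcl16 and Pf4 were 0.24, 0.67, 0.23 and 0.02. Leaving out 1 library at a time, Cxcl10 ran from 0.03 (without MG CTL F2) to 0.72 (without MG CTL F3), Cxcl14 from 0.14 (without MG BLZ945 M2) to 1.79 (without MG CTL M2) and Pf4 from -0.63 (without MG BLZ945 F3) to 0.28 (without MG BLZ945 M1). The median of the 6 genes was 0.45 against 0.00 for all genes.

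In tdT- sdCAMs, edgeR called 0 of the 8 chemokines between BLZ945 and CTL, as it called 0% of all 13076 genes. No chemokine had an unadjusted p under 0.05 and DESeq2 called 0 of them, whereas over all genes 697 had an unadjusted p under 0.05 and DESeq2 called 56. The widest shift with some precision was that of Cxcl10, 0.90 with a 95% interval from -0.23 to 2.04 (edgeR adjusted p = 0.990). Cxcl2 differed by 0.11 (-0.86 to 1.07), Cxcl1 by 0.03 (-0.94 to 0.99), Pf4 by -0.21 (-0.62 to 0.21) and Cxcl16 by -0.09 (-0.40 to 0.23). For Cxcl1 and Cxcl2 the intervals reach nearly 1 log2 unit on both sides. Cxcl9, at 1.73, Cxcl13, at 0.74, and Cxcl14, at -0.42, had SEs of 1.26, 1.47 and 0.94. Cxcl13 was at -1.93 without tdT- BLZ945 F1. Cxcl9 was at 0.66 without tdT- BLZ945 F3 and at 2.68 without tdT- CTL F1, and Cxcl14 at -0.92 without tdT- BLZ945 F1 and at -0.05 without tdT- CTL M2. The median of the 8 genes was 0.07, against 0.00 for all genes.

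The effect of BLZ945 was then compared between tdT- sdCAMs and MG in a single model. Of the 8 chemokines edgeR called 0, DESeq2 called 0 and 1 had an unadjusted p under 0.05, beside 0.0394% of 12697 genes called by edgeR and 8.69% with an unadjusted p under 0.05. That one was Cxcl1, whose difference of -3.13 (SE 1.35, edgeR adjusted p = 0.501) rests on the MG counts given above and ran from -6.85 without MG CTL F3 to -2.27 without MG BLZ945 F2. Cxcl2 differed by -1.27 (SE 0.66, adjusted p = 0.616). The median of the 8 differences was -0.73 and that of all genes -0.03.

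No chemokine was called between cells with and without the reporter. Between tdT+ and tdT- sdCAMs of BLZ945 animals, edgeR called 0 of 8 chemokines, none had an unadjusted p under 0.05 and DESeq2 called 0. Over all 13076 genes edgeR called 0.206%, 6.91% had an unadjusted p under 0.05 and DESeq2 called 133. Cxcl16 was 0.32 higher on the log2 scale (95% interval -0.04 to 0.67, edgeR adjusted p = 0.776). Cxcl13 was at -3.64 (SE 2.03, adjusted p = 0.809), at -0.97 without tdT- BLZ945 F1 and at -8.71 without tdT+ F3. The values for Cxcl1, Cxcl2, Cxcl9, Cxcl10, Cxcl14 and Pf4 were -0.48, -0.20, -0.65, -0.58, 1.05 and -0.06. Cxcl2 ran from -0.72 without tdT+ F3 to 0.25 without tdT+ F2, and Cxcl10 from -1.47 to -0.10 without the same libraries. Cxcl9 was at 0.42 without tdT- BLZ945 F3 and at 4.59 with the replicate block, and was higher in tdT+ cells in 2 of 3 pools. The median of the 8 genes was -0.34 against -0.02 for all genes. In the same pools Cxcl1 was lower in tdT+ than in tdT- cells in 3 of 3, by 0.33 to 1.22 in log2(CPM + 1). Against tdT- CTL sdCAMs, the tdT+ libraries gave 0 calls of 8 by edgeR, none at an unadjusted p under 0.05 and 0 by DESeq2, where over all genes edgeR called 0.283%, 7.44% had an unadjusted p under 0.05 and DESeq2 called 181. The values ran from -2.90 for Cxcl13, which was -7.97 without tdT+ F3, to 1.08 for Cxcl9, which was 0.52 without tdT+ M2 and 2.03 without tdT- CTL F1. Cxcl10, at 0.33, was at -0.58 without tdT+ F3. Both comparisons use the 3 tdT+ libraries, and the first shares its tdT- libraries with the comparison of treatment.

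Genes whose levels ran most alike to a chemokine over the 23 libraries were sought among 7309 genes by Spearman correlation of log2(CPM + 1). The libraries share animals and fall into the populations of the sort, so these values describe mainly the contrast of MG and sdCAMs. Closest to Cxcl1 were Tfec (0.904), Tsc22d3 (0.903) and Ncoa1 (0.892), and closest to Cxcl2 were Gpr65 (0.926), Stk17b (0.919) and Trim25 (0.916). For Cxcl10 they were Cst7 (0.931), Rnf138 (0.929) and Slamf8 (0.920), for Pf4 Cfp (0.906), Egfl7 (0.901) and Fpr1 (0.900), and for Cxcl16 Jak2 (0.706), Thbs1 (0.680) and Asb8 (0.655). Cxcl9, Cxcl13 and Cxcl14 were below the level required. Between the chemokines themselves, Cxcl1 and Cxcl2 gave 0.910, Cxcl1 and Cxcl10 -0.699, and Cxcl2 and Cxcl16 0.0425.

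Of 7 further CXC ligands sought, 6 were in the table. The 3 with enough counts for a test were higher in tdT- CTL sdCAMs than in MG CTL. Ppbp, the platelet chemokine next to Pf4, had 0 to 0.963 CPM in MG, means of 66.3 ± 48.1 CPM for tdT- CTL, 21.0 ± 34.4 for tdT- BLZ945 and 14.4 ± 22.3 for tdT+ sdCAMs, where 1 library of each BLZ945 group was at 0. Its log2 fold changes against MG were 8.26 (edgeR adjusted p = 0.000213), 6.69 (adjusted p = 0.00115) and 6.16 (adjusted p = 0.0342). Cxcl12, the Cxcr4 ligand made by stromal cells, had at most 1.42 CPM in MG and 11.1 ± 7.28, 16.6 ± 5.36 and 7.21 ± 4.00 CPM in the sdCAM groups, with log2 fold changes of 6.08 (adjusted p = 5.91e-05), 4.76 (adjusted p = 0.000272) and 3.56 (adjusted p = 0.00679).
Beside Cxcl12, the fibroblast markers Col1a1, Col1a2, Dcn, Lum and Pdgfra summed to 0.153 to 2.39 CPM in MG and 15.3 to 57.2 CPM in sdCAMs, and their part in it was not tested. Cxcl3, a Cxcr2 ligand that shares sequence with Cxcl2, was called in CTL (3.51, edgeR adjusted p = 0.0228) and not in BLZ945 animals, with values of 1.97 (adjusted p = 0.155) for tdT- and 1.85 (adjusted p = 0.309) for tdT+ sdCAMs. The test of the difference between the treatments, -1.54 (SE 1.44, edgeR adjusted p = 0.818), was not called. It ranged from 0.223 to 63.8 CPM in sdCAMs. Cxcl5 and Cxcl17 did not exceed 3.40 CPM and Cxcl15 had 0 counts throughout.

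The receptors of these ligands were read in the same cells. Cxcr2, the receptor of Cxcl1 and Cxcl2, had 0 counts in all libraries but 1, as did Cxcr1, and neither exceeded 3 counts. Cxcr3, the receptor of Cxcl9 and Cxcl10, stood at 0.301 to 4.88 CPM in MG, and averaged 47.0 ± 18.2 CPM over tdT- CTL, 46.0 ± 14.4 over tdT- BLZ945 and 24.1 ± 13.4 over tdT+ sdCAMs. It was higher in sdCAMs in all 3 comparisons, by 4.98, 4.41 and 3.48 on the log2 scale (edgeR adjusted p = 3.41e-07, 1.18e-06 and 0.00202), the population in which its ligand Cxcl10 was lower. Cxcr4, the receptor of Cxcl12, was also higher in sdCAMs (11.5 to 24.4 CPM in tdT- CTL, at most 1.18 CPM in MG), by 5.22, 4.33 and 5.06 (edgeR adjusted p = 8.18e-07, 5.22e-06 and 3.96e-06).
Ackr3, a scavenging receptor of Cxcl12, was the single receptor gene called for BLZ945, of 3 tested in MG and 4 in tdT- sdCAMs. Over all genes edgeR called 0.408% in MG and 0% in tdT- sdCAMs. The MG level of Ackr3 was 3.13 ± 1.01 CPM in CTL and 0.246 ± 0.243 CPM after BLZ945, with no overlap. The MG BLZ945 libraries held 1, 2, 4, 7 and 0 counts, around the detection limit of 3 counts. For this change edgeR gave a log2 difference of -3.62 with an SE of 0.66 and an adjusted p = 0.0254. Ackr3 was also lower in tdT- CTL sdCAMs than in MG CTL (-3.71, SE 1.34, adjusted p = 0.0450). In BLZ945 animals the value for tdT- sdCAMs was 1.03 (SE 1.27, adjusted p = 0.575), and the difference between the treatments, 4.74 (SE 1.83, edgeR adjusted p = 0.435), was not called. Cxcr5, Cxcr6 and Ackr1 did not exceed 4.18, 4.08 and 5.97 CPM.

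**Figure D5:**
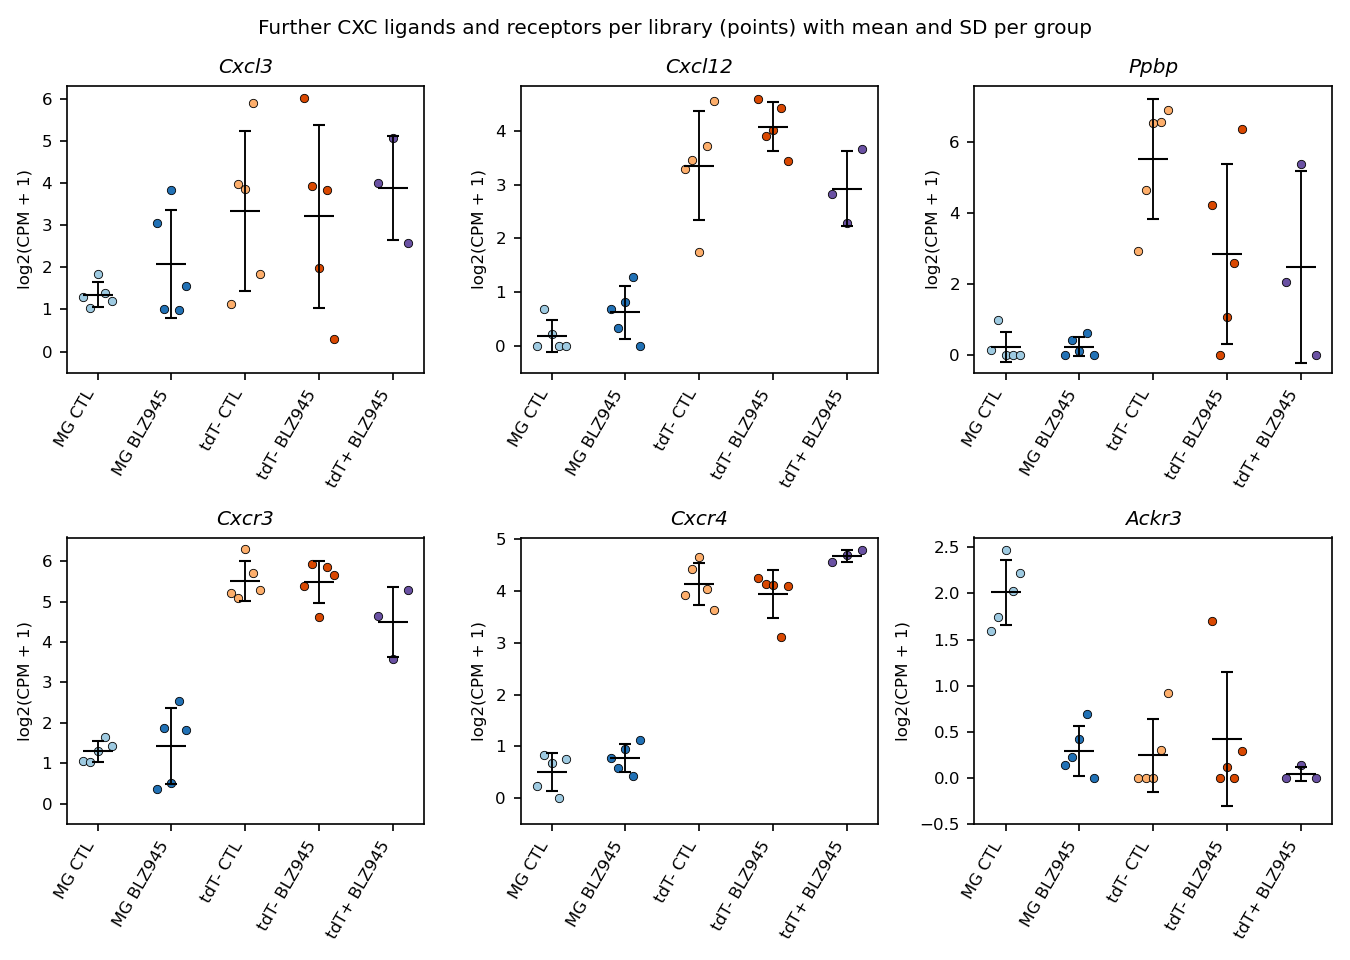
Levels of the further ligands Cxcl3, Cxcl12 and Ppbp and of the receptors Cxcr3, Cxcr4 and Ackr3, as log2(CPM + 1), in each library by group, with mean and SD. Cxcl12, Cxcr3 and Cxcr4 lie higher in every sdCAM library than in any MG library, and Ackr3 lies above 2 CPM in MG CTL only, apart from 1 tdT- BLZ945 library at 2.25 CPM.

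Genes of the pathways that induce these chemokines were counted from lists. Over all genes tested, 15.3% were called higher and 10.3% lower in tdT- CTL sdCAMs than in MG CTL, 18.3% and 14.1% in tdT- BLZ945 and 11.8% and 7.05% in tdT+ sdCAMs than in MG BLZ945, and the counts of each list stand beside these shares. Of 12 genes of the NF-kB response, 1 was higher and 7 were lower in tdT- CTL sdCAMs than in MG CTL (list median -0.81), 1 higher and 9 lower in tdT- BLZ945 (median -1.44) and 1 higher and 5 lower in tdT+ sdCAMs (median -0.86). In CTL the cytokine genes Il1a (log2 fold change -6.11), Il6 (-2.97) and Tnf (-1.41), the chemokine gene Ccl4 (-2.86) and the adhesion gene Icam1 (-1.83) were lower, and the monocyte attractant Ccl2 (1.49) was higher. Cxcl1 and Cxcl2 thus lay, with Ccl2, on the side opposite to most of the list.
Of 12 interferon response genes, 5 were called, all higher, in tdT- CTL sdCAMs against MG CTL, namely Oasl2 (2.98), Irf7 (2.10), Usp18 (1.49), Ifit3 (1.43) and Isg15 (0.78), with a list median of 1.07, whereas Cxcl10 was lower. In BLZ945 animals 1 was higher and 1 lower in both tdT- and tdT+ sdCAMs, Oasl2 at 1.32 and 1.35 and Ifit2 at -1.12 and -2.52. In MG, BLZ945 against CTL gave a list median of 0.85, with 0 of the 12 called by edgeR, 9 at an unadjusted p under 0.05 and 3 called by DESeq2, where 13.2% of all 11264 genes had an unadjusted p under 0.05 and DESeq2 called 237. The NF-kB list there had a median of 0.29 with 4 of 12 genes at an unadjusted p under 0.05, the immediate early list 1 of 10 and the proteases 0 of the 4 tested, with 0 called by edgeR or DESeq2 in these 3 lists. For the difference between the BLZ945 effects in tdT- sdCAMs and MG the interferon list median was -1.15, with 0 of the 12 called by edgeR, 7 at an unadjusted p under 0.05 and 1 called by DESeq2, where over all genes edgeR called 0.0394%, 8.69% had an unadjusted p under 0.05 and DESeq2 called 94.
Of the 10 immediate early genes, 4 were higher in tdT- CTL sdCAMs than in MG CTL, Fosb (2.25), Dusp1 (2.01), Fos (1.77) and Ier3 (0.67). In BLZ945 animals 4 were higher and 2 lower in tdT- sdCAMs and 3 were higher in tdT+ sdCAMs. Among 6 proteases that cut or shed chemokines, Mmp9 was higher (8.54) and Mmp12 (-5.85) and Adam10 (-1.20), a sheddase of Cxcl16, were lower in tdT- CTL sdCAMs than in MG CTL. In tdT- BLZ945 sdCAMs Mmp9 (10.30) was higher and Mmp12 (-5.58), Adam10 (-1.49) and Adam17 (-0.89) were lower, and in tdT+ sdCAMs the values were 10.03 for Mmp9, -7.82 for Mmp12 and -1.14 for Adam10. For BLZ945 in tdT- sdCAMs, edgeR and DESeq2 called 0 genes of these 4 lists and 1, an interferon response gene, had an unadjusted p under 0.05, as did 5.33% of all genes. Between tdT+ and tdT- sdCAMs both also called 0, with 1 gene at an unadjusted p under 0.05 in each list but the immediate early one, beside 6.91% of all genes.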

How the data were processed

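RNA of sorted mouse brain macrophages was sequenced by the authors after SMART-Seq library preparation, without molecular identifiers. The authors deposited raw counts, as whole numbers of reads assigned to each gene symbol. Per the submitters' processing notes, reads were demultiplexed with bcl2fastq 2.20, aligned with STAR 2.7.11a and counted with featureCounts 2.0.6, and the study tested with DESeq2 1.46.0. The methods of the study name another featureCounts version, and mm10 or a later mouse build depending on the date of the experiment. Which build this table used, and how multi-mapping reads and strand were handled in counting, was not given in the sources used here. Promoters are those of RefSeq on GRCm38.p6, exon lengths and shared stretches of 50 bases were computed from GENCODE annotation of the mouse, and no gene positions in the authors' build are printed.

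Of the 33280 genes, 9482 were without a read in any library. Columns were tied to samples by library name. No duplicate library was found, the closest pair within a group differing by a chi-square of 16.5 per gene. Tests were run in edgeR 4.0.16 and R 4.3.3 (TMM factors, filterByExpr, glmQLFit, glmQLFTest), with Benjamini-Hochberg adjustment over all genes tested and a threshold of 0.05. MG were compared within the 10 MG libraries, sdCAM groups within the 13 sdCAM libraries, tdT- sdCAMs with MG within 20 libraries that also served for the difference between treatment effects, and tdT+ sdCAMs with MG within the 13 BLZ945 libraries. CPM were computed on TMM-scaled library sizes and log values used a pseudocount of 1 CPM. The floor of 3 counts covers counting error only, since PCR duplicates are not independent molecules. Alternatives were DESeq2 1.42.0, its size factors, no TMM, other filters, all libraries in 1 fit, a replicate block and leaving out each library.

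Replicate labels pair libraries of the same animal or pool within a treatment, and between treatments they name different animals. Correlations of same-animal deviations from the group means over genes were 0.029 to 0.183. Between treatments, where the same label names different animals, they were -0.080 to 0.186, so these values do not show an animal effect. The main fits had no block. The design formula of the study was not given in the sources used here. The scripts were tested on simulated counts.

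All 8 chemokines, the further CXC ligands and the receptors are named. Of other lists at most 6 called genes with the largest fold change are named per comparison, and the 3 genes most alike to each chemokine are named if their average log2 CPM is at least 4. The chemokines and gene lists were chosen with earlier results of these data known. The immediate early sum was read beside Cxcl2 after the values were seen.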

Additional observations from a re-analysis of the deposited data

Results flagged for a closer look

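Within groups of 5 libraries, the highest and lowest level of each chemokine, as log2(CPM + 1), were compared with the others by Dixon's ratio, the gap to the nearest library over the range of the group. Of 32 groups tested, 2 exceeded the 95% critical value, and chance alone gives about 1 in 20. Cxcl1 in MG CTL had a ratio of 1, because F3 held 0.684 CPM and all the others 0. Cxcl2 in tdT- BLZ945 sdCAMs had a ratio of 0.716, because F2 held 176 CPM against 664 CPM or more in the others. The count depends on the scale. On CPM without the log, a scale added after seeing the data, 7 of the 32 groups exceeded the critical value of 0.71, Cxcl1 in MG CTL among them, whereas Cxcl2 in tdT- BLZ945 sdCAMs, with a ratio of 0.515, did not. The 6 others on CPM were the highest libraries of Cxcl9, Cxcl13 and Cxcl14 in MG CTL, of Cxcl13 and Cxcl16 in MG BLZ945 and of Cxcl13 in tdT- BLZ945 sdCAMs. No explanation of these was tested.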

How the results depend on the processing

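Of the 13 called values, refitted 209 times in all, 207 refits were called in the same direction and 2 were not called, both of Cxcl9 in tdT- BLZ945 sdCAMs against MG BLZ945. With the replicate block, that value was 3.10 (edgeR adjusted p = 0.135), Cxcl9 in tdT+ sdCAMs against MG BLZ945 was 6.77 (adjusted p = 0.0468), and the block changed no other call. Leaving out 1 library at a time gave 0 to 1 called chemokines for MG BLZ945 against MG CTL, the 1 being Cxcl2 without MG CTL M2. With at least 10 counts in every library, tdT- BLZ945 sdCAMs against MG BLZ945 gave 3 called instead of 5, because 4 chemokines were then tested. The other 138 of 140 counts stayed within 1.5 times. Of 851 refits of the 49 uncalled values, 6 were called and 43, of 16 values, had the other sign, with values from -2.53 to 4.59. All 40 group means stayed within 1 SD without TMM. Over all genes DESeq2 called 237 against 46 by edgeR in MG BLZ945 against MG CTL, 56 against 0 in tdT- BLZ945 against tdT- CTL, 133 against 27 in tdT+ against tdT- BLZ945, 181 against 37 in tdT+ BLZ945 against tdT- CTL and 94 against 5 for the difference between treatment effects. Without TMM the median log2 fold change of all genes was -0.13 to -0.17 in the comparisons of sdCAMs with MG. edgeR's common coefficient of biological variation came to 0.253 in MG and 0.704 in sdCAMs, which limits what could be detected in sdCAMs. The causes of these changes were not tested.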
